A study of Capra hircus with 6 samples.

Results

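The genes described here encode ferritin, heme oxygenase 1, and the proteins that carry iron into and out of a cell or set the amount of those carriers. They are FTL, FTH1, HMOX1, TFRC, SLC40A1, NCOA4, SLC39A14, IREB2, STEAP3, and ACO1, 10 of the 15944 genes in the deposited count table. The genes were found by name in the identifier and gene symbol columns. They were chosen by their function, with the difference between the ATRA and control counts of this table already known, so that difference is given for them as a description, and the calls counted among them are no independent test. All 10 had enough reads to enter the fit across 12588 genes. The search also returned an 11th row, LOC102172435, whose symbol column reads FTL.

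RNA-seq was performed on dermal papilla cells cultured from the secondary hair follicles of goats (SHF-DPCs), the mesenchymal cells at the base of the follicles that make cashmere. The cells came from skin over the right scapula of 3-year-old Albas cashmere goats in the growth phase of the hair cycle and were used at passages 4 to 7. The labels call the cells wild type, a primary culture, and batch 1 in all 6 libraries. The ATRA group (n = 3) received all-trans retinoic acid, the active metabolite of vitamin A, at 100 µM for 24 h, and the control group (n = 3) received culture medium. Cells of 3 animals were treated, and which control and ATRA cultures share an animal is not stated. A separate solvent control is not described.

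Iron is needed for heme, iron-sulfur clusters, and many enzymes, and free ferrous iron catalyzes the formation of damaging radicals. Cells therefore take up iron bound to transferrin, store what is not used inside the ferritin shell, and release the surplus through ferroportin. The iron regulatory proteins bind stem loops, called iron-responsive elements, in the messenger RNAs of this system when iron is scarce. Binding blocks the translation of ferritin and protects the transferrin receptor messenger RNA from decay. Heme oxygenase releases iron from heme, and its gene, like the ferritin genes, is also controlled by the NFE2L2 and BACH1 transcription factors.

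The libraries held 35532339 to 38012771 counts, and the deposited counts were scaled by TMM, whose factors were 0.842 to 0.851 in the control libraries and 1.165 to 1.197 in the ATRA libraries. Levels are given as normalized CPM, the count of a gene relative to the scaled total of its library. Of 12 markers of dermal papilla cells and fibroblasts, 8 were tested and all 8 fell under TMM, and the summed level of the list was 60715 to 63138 CPM in the control group and 2655 to 2764 CPM with ATRA. The raw counts of PDGFRB and LEF1 overlapped between the groups, at 6378 to 6765 and 468 to 550 in the control libraries and 6355 to 6724 and 430 to 517 with ATRA. Among the markers used for dermal papilla cells, PROM1, ALPL, SOX2, and CORIN had at most 5 counts in any control library. ACTA2 and VCAN were high there, with 200752 to 220329 and 49880 to 55062 counts. With ATRA they held 332 to 397 and 1281 to 1578 counts. The paper reports positive staining of its cells for the proteins of ACTA2 and PROM1 (α-SMA and CD133). Macrophages also carry high levels of iron genes, and the summed level of 8 leukocyte and macrophage markers was 9.37 to 12.9 CPM in the control group and 41.7 to 44.6 CPM with ATRA. Nearly all of it was CD14 and CD68. MARCO had 4, 2, and 1 counts in the control libraries and 18, 24, and 19 with ATRA. Of this list 3 markers were tested, and all 3 rose under TMM. In every library CSF1R had 7 counts or fewer and CD163, ITGAM, and AIF1 had 2 or fewer, and PTPRC was not listed. Of the 6 erythroid markers only KLF1 was listed, with at most 5 counts, and the other lists summed to 3.11 to 4.98 CPM in the control group and 5.40 to 6.02 CPM with ATRA (keratinocyte), 0.903 to 1.24 CPM and 6.19 to 9.16 CPM (endothelial), and 16.1 to 17.6 CPM and 32.2 to 39.0 CPM (melanocyte). The part of these shifts in the results was not tested. In bulk RNA, a change in the number of cells that express a gene and a change in RNA per cell cannot be told apart.

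Of the 10 iron genes, 7 were higher and 3 were lower with ATRA under TMM. For each of them the normalized CPM of the 3 ATRA libraries lay apart from that of the 3 control libraries. Lack of overlap was common in this table, with 41.2% of the genes tested wholly higher and 39.0% wholly lower with ATRA. By edgeR's quasi-likelihood test with an adjusted p under 0.05, the same 7 and 3 genes were called, where 40.9% of all genes were called higher and 38.7% lower. By the study's thresholds, |log2FC| above 1 with an unadjusted p under 0.05 (here edgeR's), 6 iron genes were higher and 2 lower, against 13.7% and 17.3% of all genes. The median log2 fold change (log2FC) of the 10 genes was 1.28, beside 0.04 for all genes tested. Since the genes were picked with these differences known, the counts describe the group and are no evidence of enrichment. Within a group, the coefficient of variation of the 10 genes ran from 1.71% to 10.1%.

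**Figure D1:**
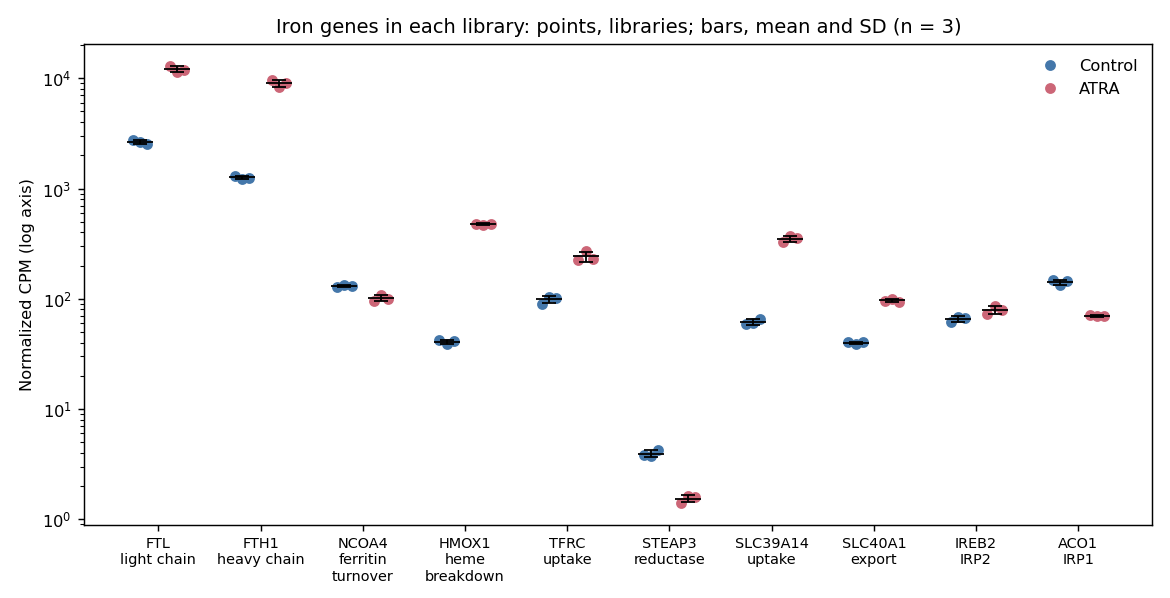
Normalized CPM of the 10 iron genes in every library, on a log axis, with control libraries in blue and ATRA libraries in red; black marks are the mean and SD of 3 libraries. Under TMM the groups are apart for every gene, by most for HMOX1 (40.9 against 473 CPM) and by least for IREB2 (65.7 against 79.2 CPM). Heights are not corrected for gene length, so they compare groups and not genes.

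Ferritin is a hollow shell built from light and heavy chains, in which the heavy chain oxidizes iron and the light chain helps to form the iron core. The light chain gene FTL stood at 2774, 2634, and 2526 CPM in the control libraries and at 12967, 11480, and 12002 CPM in the ATRA libraries. The heavy chain gene FTH1 stood at 1312, 1228, and 1244 CPM in the control libraries and at 9700, 8305, and 9028 CPM with ATRA. Both were far above the control range in every ATRA library, and ATRA replicate 1 was the highest for both. The fold change was 4.59 for FTL (log2FC 2.20, standard error 0.0667) and 7.14 for FTH1 (log2FC 2.84, standard error 0.0697).

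With ATRA, FTL stood at the top of the read counts. FTL ranked 32, 34, and 35 by counts in the control libraries and 1 in each of the ATRA libraries, and FTH1 moved from ranks 95, 104, and 99 to rank 3 in each. Ranks are of reads per gene, are not corrected for transcript length, and also depend on the other genes. FTL held 496654 to 560467 counts with ATRA. COL1A1 held 853351 to 884303 counts in the control libraries and 23430 to 24253 with ATRA, and VIM 595932 to 624742 and 67074 to 69457. The pair took 0.344%, 0.329%, and 0.320% of all counts in the control libraries and 2.67%, 2.37%, and 2.45% with ATRA. This is 1 read in 291 to 313 without ATRA and 1 in 37.4 to 42.3 with it. These shares are not TMM-scaled, and their mean rose 7.55-fold, beside TMM fold changes of 4.59 for FTL and 7.14 for FTH1.

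The chains did not change by the same factor. There were 0.473, 0.466, and 0.493 FTH1 counts for each FTL count in the control libraries and 0.748, 0.724, and 0.752 with ATRA. The means were 0.477 ± 0.0136 and 0.741 ± 0.0155 (SD, n = 3 each), 1.55 times as high with ATRA, and the groups did not overlap. This ratio is taken within a library, so it does not depend on how libraries are scaled to each other. Its size includes the unknown difference in transcript length, whereas its change between the groups does not.

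**Figure D2:**
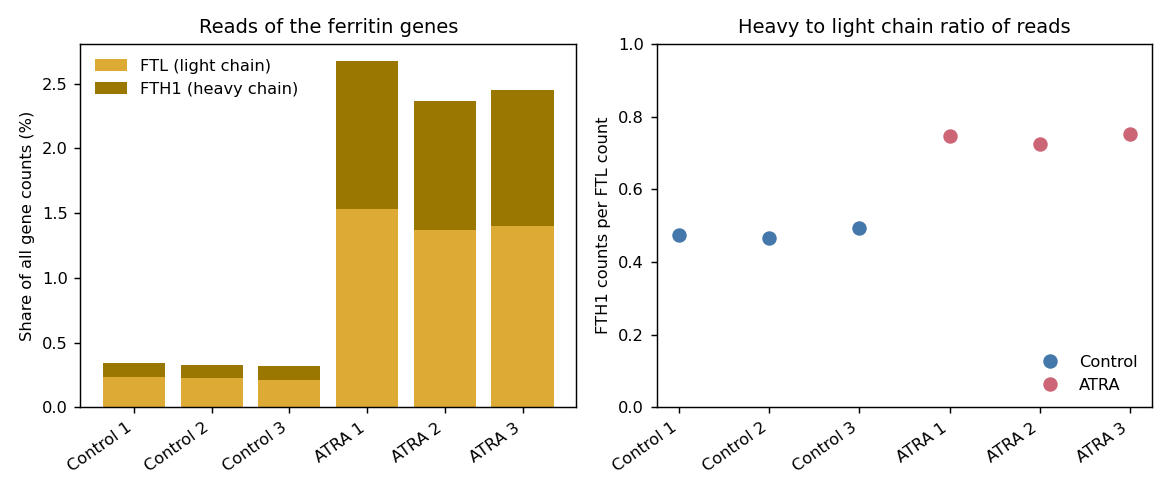
Left, the share of all gene counts in each library that fell on FTL and FTH1 (%, stacked bars from 0). Right, FTH1 counts per FTL count in each library. The share is 0.320% to 0.344% in the control libraries and 2.37% to 2.67% with ATRA, and the ratio moves from 0.466 to 0.493 up to 0.724 to 0.752.

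LOC102172435, annotated as a ferritin light chain, held 2, 4, and 1 counts in the control libraries and 29, 19, and 13 with ATRA. Reads could be divided between it and FTL if the sequences are alike, and FTL itself held at least 81132 counts in every library. NCOA4 is the cargo receptor that delivers ferritin to autophagosomes, where its iron is released. It stood at 127, 135, and 131 CPM in the control libraries and at 95.9, 108, and 99.97 CPM with ATRA. Under TMM all ATRA libraries lay below all control libraries, by a small amount (log2FC -0.37, standard error 0.0601). Its raw counts overlapped, at 3936 to 4354 in the control libraries and 4137 to 4775 with ATRA.

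HMOX1 encodes the inducible heme oxygenase, which opens the heme ring and yields iron, carbon monoxide, and biliverdin. It had the largest difference of the 10 genes. The control libraries held 42.3, 38.9, and 41.4 CPM and the ATRA libraries 477, 463, and 480 CPM. The ATRA libraries lay close together, with a coefficient of variation of 1.93%. The fold change was 11.6 (log2FC 3.53, standard error 0.0613).

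Among the genes of iron uptake, TFRC encodes the transferrin receptor, which carries transferrin-bound iron into endosomes. It stood at 90.5, 105, and 102 CPM in the control libraries and at 225, 270, and 232 CPM with ATRA (log2FC 1.29, standard error 0.0733). All ATRA libraries lay well above the highest control library, and ATRA replicate 2 was the highest. STEAP3 encodes the endosomal reductase that converts this ferric iron to the ferrous form. It was a weakly expressed gene, with 118, 122, and 137 counts in the control libraries and 61, 71, and 66 with ATRA. As normalized CPM the values were 3.802, 3.77, and 4.27 without ATRA and 1.41, 1.61, and 1.60 with it, 2.56-fold lower (log2FC -1.36, standard error 0.177). The receptor gene and the reductase gene thus differed between the groups in opposite directions.

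SLC39A14 encodes ZIP14, a transporter of zinc, manganese, and iron that takes up iron not bound to transferrin. Its control values were 58.5, 60.5, and 66.2 CPM and its ATRA values 327, 368, and 355 CPM. This was a fold change of 5.67 (log2FC 2.50, standard error 0.0658), the third largest after HMOX1 and FTH1. SLC40A1 encodes ferroportin, the known exporter of iron from cells. It stood at 40.2, 38.8, and 40.6 CPM in the control libraries and at 96.2, 99.3, and 94.2 CPM with ATRA, a fold change of 2.42 (log2FC 1.28, standard error 0.0614). The genes for the uptake proteins TFRC and ZIP14 and for the exporter ferroportin were thus all higher with ATRA.

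The iron regulatory proteins are encoded by ACO1 (IRP1), which doubles as the cytosolic aconitase when it holds an iron-sulfur cluster, and IREB2 (IRP2), which is degraded when iron is plentiful. ACO1 stood at 148, 133, and 145 CPM in the control libraries and at 71.3, 69.2, and 69.2 CPM with ATRA. It was 2.03-fold lower with ATRA (log2FC -1.02, standard error 0.0594). IREB2 stood at 61.0, 68.9, and 67.2 CPM without ATRA and at 73.0, 85.9, and 78.8 CPM with it (log2FC 0.27, standard error 0.0710). Its groups were apart by a narrow gap, between Control replicate 2 and ATRA replicate 1. ACO1 and IREB2 are also the only 2 genes of the table whose annotation carries the GO term iron-responsive element binding. These counts measure messenger RNA and not the binding activity of either protein.

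The scaling between libraries sets the position of all these values. Dividing by library size only raised the median log2FC of all genes tested by 0.48. Under that scaling NCOA4 turned to 0.11, and STEAP3 (-0.88) and ACO1 (-0.54) fell short of a log2FC of -1. The other 7 genes were higher with ATRA under each of the 4 scalings. A change of scaling moves every gene by nearly the same amount, so values measured from the median of all genes stay in place by construction. On that measure NCOA4 was at -0.41 under TMM and -0.41 under library size only, and HMOX1 at 3.50 under both. These values are no check of the direction of NCOA4. ACO1 lay close to the study's threshold, at -0.997 without Control replicate 1 and at -0.94 with upper-quartile scaling. Leaving FTL and FTH1 out of the computation of the TMM factors, a choice made after the data were seen, gave FTL the same log2FC to 2 decimals, 2.20. TMM already trims the genes with the most extreme ratios, so this could hardly change the factors and is no check of the scaling.

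**Figure D3:**
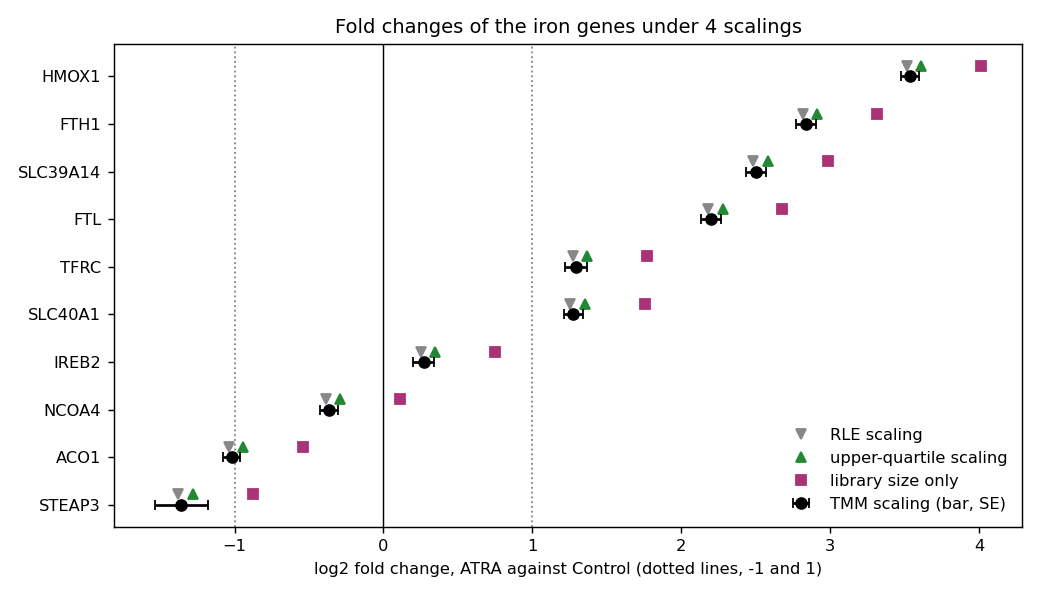
Log2FC of the 10 iron genes, ATRA against control, under TMM scaling (black, bar for the standard error) and 3 other scalings; dotted lines mark -1 and 1. Library size only (squares) moves every gene to the right by about 0.48, which takes NCOA4 across 0 and ACO1 and STEAP3 inside -1.

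The other genes of iron and heme handling were taken from 8 lists of 89 genes. Of these, 83 were found in the table, as 84 rows, and 73 rows had enough reads to be tested. At an adjusted p under 0.05 from edgeR's quasi-likelihood test, 37 rose (50.7%) and 19 fell (26.0%), where 40.9% and 38.7% of all genes did. By the study's thresholds, with edgeR's unadjusted p, 17 rose (23.3%) and 5 fell (6.85%), beside 13.7% and 17.3% of all genes. The median log2FC was 0.20, against 0.04 for all genes. The split depends on scaling, and with library size only 56 rose and 6 fell, while among all genes 7921 rose and 2861 fell. The lists were also chosen with earlier results of these data known. Their counts are therefore a description and no evidence of enrichment. Many genes named below were picked by their adjusted p and log2FC, so their p-values are no independent support.

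In heme synthesis, 3 of 8 tested genes rose (37.5%), 3 fell (37.5%), and 2 did not pass, with a median log2FC of 0.085. These shares were near those of all genes, 40.9% and 38.7%. ALAS1, the first and rate-limiting enzyme outside the red cell lineage, rose from 45.8 ± 2.85 to 145 ± 6.32 CPM (SD, n = 3 each, log2FC 1.66, edgeR adjusted p = 3.15e-14). ALAD, the next enzyme, fell from 11.8 ± 1.66 to 4.36 ± 0.397 CPM (log2FC -1.43, adjusted p = 9.38e-09). PPOX, a late mitochondrial enzyme, rose with a log2FC of 1.08 (adjusted p = 4.20e-10). FECH, the ferrochelatase that inserts iron into the ring, fell by 0.48 on the log2 scale (adjusted p = 7.63e-06), and it was at 0.001 with library size only. Genes of this list thus changed in both directions.

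In heme breakdown and transport, 4 of 9 tested rows rose (44.4%) and 3 fell (33.3%), near the 40.9% and 38.7% of all genes, with a median of -0.09. The constitutive heme oxygenase gene HMOX2 stood at 42.5 ± 3.11 CPM without ATRA and 40.1 ± 2.43 CPM with it (SD, n = 3 each). It did not pass the test (log2FC -0.09, edgeR adjusted p = 0.300), but passed as higher with library size only (log2FC 0.393, adjusted p = 0.00011). The genes for the biliverdin reductases, which act on the product of heme oxygenase, moved in opposite directions. BLVRA fell from 57.7 ± 2.25 to 26.9 ± 2.82 CPM (log2FC -1.10, adjusted p = 3.51e-10), whereas BLVRB rose from 84.1 ± 5.32 to 184 ± 19.8 CPM (log2FC 1.13, adjusted p = 1.13e-10). SLC48A1, which moves heme out of endosomes and lysosomes, rose with a log2FC of 1.47 (adjusted p = 5.98e-13), and the porphyrin transporter gene ABCB6 with 0.97 (adjusted p = 7.65e-11). The heme-binding protein gene HEBP1 fell with a log2FC of -1.22 (adjusted p = 4.38e-10), as did the exporter gene ABCG2 with -1.04 (adjusted p = 5.91e-06).

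In iron uptake and reduction, 4 of 6 tested genes rose (66.7%) and 2 fell (33.3%), beside 40.9% and 38.7% of all genes, with a median of 1.28. The relatives of STEAP3 rose where STEAP3 was lower. STEAP1 rose from 32.9 ± 1.80 to 273 ± 5.95 CPM (SD, n = 3 each, log2FC 3.06, edgeR adjusted p = 2.42e-18) and STEAP2, a metal reductase, from 21.2 ± 0.735 to 80.8 ± 4.27 CPM (log2FC 1.93, adjusted p = 1.15e-14). STEAP4 had 1 count in all 6 libraries together. SLC11A2 encodes DMT1, which moves ferrous iron out of the endosome after its reduction. It was listed as LOC102190297, which rose from 10.7 ± 0.804 to 27.9 ± 1.47 CPM (log2FC 1.38, adjusted p = 5.81e-11). A second row with that symbol, LOC102190935, held 40, 46, and 45 counts without ATRA and 820, 833, and 725 with it. Reads of such near copies may have been divided between the rows. HFE, which binds the transferrin receptor, fell from 39.6 ± 0.915 to 10.4 ± 1.29 CPM (log2FC -1.92, adjusted p = 4.88e-13). CYBRD1, a ferric reductase gene listed as LOC100861136, fell by 0.59 on the log2 scale (adjusted p = 1.76e-06), and did not pass with library size only (log2FC -0.115, adjusted p = 0.201).

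Of 5 tested genes of iron storage and iron chaperones, 3 rose (60%) and 2 fell (40%), beside 40.9% and 38.7% of all genes, with a median of 0.30. PCBP1 and PCBP2 encode proteins that deliver iron to ferritin. PCBP1 fell slightly from 380 ± 9.16 to 328 ± 1.59 CPM (SD, n = 3 each, log2FC -0.21, edgeR adjusted p = 0.00149), a direction that turned to 0.27 with library size only. PCBP2 rose from 465 ± 24.1 to 761 ± 29.9 CPM (log2FC 0.71, adjusted p = 3.18e-09). The related gene PCBP3 rose from 0.894 ± 0.256 to 3.44 ± 0.192 CPM (log2FC 1.95, adjusted p = 2.22e-07). GLRX3, a cytosolic glutaredoxin, had a log2FC of -0.19 (adjusted p = 0.0124), which turned to 0.29 with library size only and did not pass without Control replicate 1 (adjusted p = 0.0546).

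Of the genes of iron export and its control, few were expressed. The ferroxidase gene CP held at most 3 counts in any library, and a second row with that symbol, LOC102172204, held 0, 1, and 1 without ATRA and 15, 31, and 22 with it. HAMP, which encodes the hormone hepcidin that triggers the loss of ferroportin, held 0 counts in the control libraries and 2, 5, and 2 with ATRA. NEO1, a co-receptor of the pathway that controls hepcidin, rose from 5.12 ± 0.227 to 20.8 ± 1.31 CPM (SD, n = 3 each, log2FC 2.02, edgeR adjusted p = 1.42e-12). RNF217, a ubiquitin ligase for ferroportin, did not pass (log2FC 0.22, adjusted p = 0.173).

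Mitochondrial iron import and iron-sulfur cluster assembly formed the largest list. Of 22 tested genes 8 rose (36.4%), 7 fell (31.8%), and 7 did not pass, and the log2FC lay between -0.77 and 1.14. Among all genes 40.9% rose and 38.7% fell. The late-acting carrier genes ISCA1 and ISCA2 rose with a log2FC of 1.14 and 0.95 (edgeR adjusted p = 1.23e-12 and 2.46e-08), and the co-chaperone gene HSCB with 1.02 (adjusted p = 1.27e-06). BOLA3 and GLRX5, which also act in cluster transfer, fell with -0.77 and -0.56 (adjusted p = 2.52e-07 and 7.90e-06), and the transporter gene ABCB8 with -0.48 (adjusted p = 4.89e-06). With library size only, BOLA3 was at -0.30, GLRX5 was at -0.08 and did not pass (adjusted p = 0.365), and ABCB8 was at 0.001. The scaffold gene ISCU did not pass (log2FC -0.10, adjusted p = 0.132), but passed as higher with library size only (log2FC 0.373, adjusted p = 2.45e-05). In the cytosolic branch 5 of 9 genes rose (55.6%) and 1 fell (11.1%). The log2FC there lay between -0.54 for CIAO2A, which did not pass with library size only (log2FC -0.06, adjusted p = 0.521), and 0.72 for CIAO3. NDOR1 and CIAO2B were among those that rose (0.64 and 0.36).

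Of 12 regulators of iron and heme genes, 9 rose (75%), 1 fell (8.33%), and 2 did not pass, with a median of 0.799. Among all genes 40.9% rose and 38.7% fell. NFE2L2 encodes the transcription factor NRF2, and it rose from 74.9 ± 1.75 to 111 ± 3.47 CPM (SD, n = 3 each, log2FC 0.57, edgeR adjusted p = 4.55e-08). KEAP1, whose product marks NRF2 for degradation, rose from 61.0 ± 0.612 to 162 ± 5.76 CPM (log2FC 1.41, adjusted p = 6.01e-14). MAFF, a small MAF partner of NRF2 and BACH1, rose from 27.0 ± 0.816 to 105 ± 6.66 CPM (log2FC 1.96, adjusted p = 6.03e-15). The gene for the heme-sensing repressor BACH1 stood at 57.8 ± 4.84 CPM without ATRA and 58.4 ± 6.89 CPM with it (log2FC 0.015, standard error 0.0828, adjusted p = 0.874). It passed as higher with library size only (log2FC 0.494, adjusted p = 8.44e-05). EPAS1, which encodes a hypoxia-inducible factor, rose from 359 ± 16.5 to 1231 ± 138 CPM (log2FC 1.78, adjusted p = 9.46e-14). FBXL5, the iron-sensing ligase subunit that directs IRP2 to degradation, rose from 34.99 ± 0.246 to 55.7 ± 1.93 CPM (log2FC 0.67, adjusted p = 2.79e-08). ZFP36, which promotes decay of messenger RNAs that include TFRC, was the gene that fell (log2FC -0.55, adjusted p = 1.00e-05), and it did not pass with library size only (log2FC -0.07, adjusted p = 0.468).

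**Figure D4:**
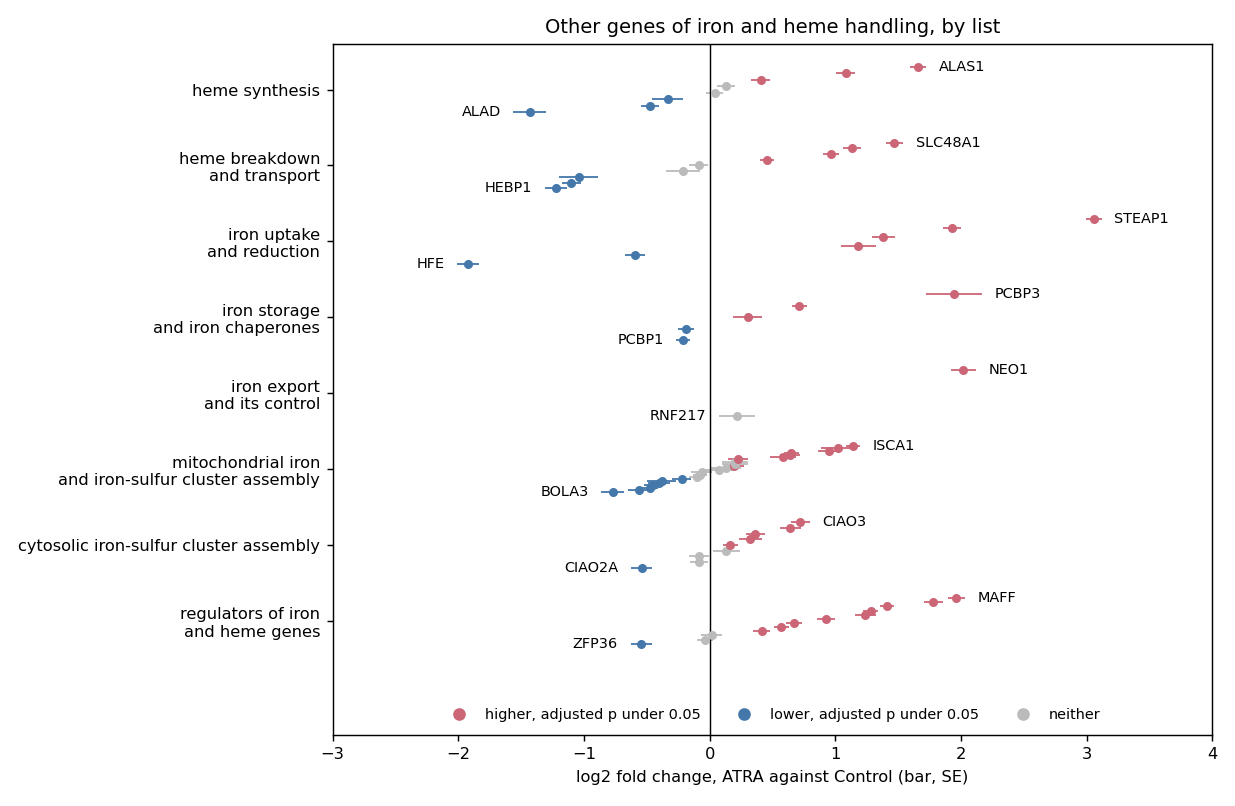
Log2FC of 73 tested rows in 8 lists of iron and heme genes, ATRA against control, each point with its standard error, red where higher and blue where lower at an adjusted p under 0.05, grey where neither; the lowest and highest gene of each list are named. Heme and uptake lists spread on both sides of 0, the cluster assembly lists stay between -0.77 and 1.14, and 9 of 12 regulators are red. Of all genes tested 40.9% were higher and 38.7% lower.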

How the data were processed

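The authors deposited 1 table of gene-level read counts for 3 control and 3 ATRA libraries, as whole numbers without normalization, beside GO and KEGG annotation. Per the study's methods, libraries were made from oligo(dT)-selected mRNA, and fastp and TrimGalore were used for read trimming. The submitters' processing notes name HISAT2, featureCounts, and DESeq2. Build, annotation, and the treatment of reads shared between copies are not given in the sources used here, so no coordinates are printed.

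From the counts, genes passing edgeR's expression filter (12588 of 15944) received TMM factors and then entered edgeR's quasi-likelihood test (robust, two-sided, no covariate, all 6 libraries), with Benjamini-Hochberg adjustment over all genes tested. Normalized CPM divides counts by the library's total over tested genes times its TMM factor. The prior count behind each log2FC was 0.125. Standard errors were computed as the absolute log2FC over the square root of F. R's t.test, which the study names, is not made for counts and was kept as an alternative. P-values measure the spread between these cultures, and how far that includes differences between animals is not known. No pair of libraries within a group agreed within sampling noise (chi-square per degree of freedom 5.01 to 18.4). Same-numbered control and ATRA libraries deviated together with r = 0.0892, 0.0299, and -0.0764 across genes, so the numbers were not treated as pairs. Over all pairings of a control with an ATRA library, r ran from -0.135 to 0.1. These values cannot show whether same-numbered cultures share an animal.

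The iron genes and the lists were chosen with earlier results of these data known. Pathway genes were named by rule: up to 3 in each direction per list with the largest log2FC among genes with an adjusted p under 0.05, a mean of at least 1 CPM in a group, and no overlap, plus genes named for their roles (ALAS1, FECH, HMOX2, SLC11A2, PCBP1, CP, ISCU, FBXL5, NFE2L2, and BACH1). Some genes that the rule names are not reported here. STEAP4, HAMP, RNF217, and the second CP and SLC11A2 rows were named outside it after their values were seen. So were the single marker genes, among them PDGFRB, LEF1, COL1A1, VIM, ACTA2, VCAN, CD14, CD68, and MARCO, and the genes named from the Ferroptosis annotation. Rows were matched by identifier, then by symbol or older symbol. On simulated counts with 200 of 12588 genes changed, edgeR recovered 199, DESeq2 199, and t.test with adjustment 63. They called 6, 11, and 0 unchanged genes. The simulation used 1 dispersion for all genes and changed far fewer genes than differed here, where t.test called 4260 higher and 4260 lower. Its recovery therefore does not carry over to these data, and it is no check of the scaling. Versions were R 4.3.3, edgeR 4.0.16, DESeq2 1.42.0, Python 3.11.15, and matplotlib 3.10.9.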

Additional observations from a re-analysis of the deposited data

How the results depend on the processing

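The alternatives were RLE, upper-quartile, and library size scaling, other filters on low counts, DESeq2, R's t.test on log2(CPM + 1), the replicate number as a block, TMM factors without FTL and FTH1 (added after seeing the data), and leaving out each library. Library size only called 7921 genes higher and 2861 lower among all genes and 56 and 6 among the iron and heme lists. It turned the log2FC of NCOA4 (0.11), FECH (0.001), PCBP1 (0.27), GLRX3 (0.29), ABCB8 (0.001), HMOX2 (0.39), and ISCU (0.37). Of these, PCBP1, GLRX3, HMOX2, and ISCU passed there as higher (edgeR adjusted p = 0.000151, 0.000382, 0.00011, and 2.45e-05). NCOA4, FECH, and ABCB8 did not pass there. CYBRD1, GLRX5, CIAO2A, and ZFP36 kept their sign there and no longer passed. BACH1, near 0 under TMM, was at -0.005 with RLE and with DESeq2, and between -0.094 and 0.072 with a library left out. With library size only it was at 0.494 and passed as higher (edgeR adjusted p = 8.44e-05). The study's thresholds in place of an adjusted p left 17 higher and 5 lower in the lists (23.3% and 6.85%, beside 13.7% and 17.3% of all genes). The replicate block takes same-numbered libraries as pairs, which the sources do not state. With it, 35 list genes were higher and 19 lower, and the iron genes stayed at 7 and 3. The t.test function called 6 and 3 iron genes, without IREB2, and library size only called 7 and 2. With each library left out, list genes called higher numbered 33 to 40, and the FTH1 to FTL ratio with ATRA was 1.54 to 1.58 times that of the control. Without transcript lengths, levels were not compared between genes, and 3 cultures per group limit small differences such as that of IREB2.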

Other observations

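The deposited annotation assigns 42 rows to the KEGG pathway Ferroptosis, a form of cell death driven by iron and lipid peroxides, and 8 of the 10 iron genes are among them. LOC102172435 is another of these rows. This list was looked at after the data were seen, so its values and counts of calls are a description. The genes named from it below were chosen by no rule after their values were seen. Of the other 33 rows, 6 are also in the iron and heme lists, and 26 had enough reads for the fit. The median log2FC of those 26 was 0.15, beside 0.04 for all genes, with 13 higher and 8 lower at the level used for all genes (50.0% and 30.8%, beside 40.9% and 38.7%).

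Cystine uptake supplies the synthesis of glutathione. The cystine transporter gene SLC7A11 stood at 25.2, 26.0, and 27.0 CPM in the control libraries and at 55.8, 86.1, and 69.7 CPM with ATRA. GCLC, the catalytic subunit of the first enzyme of glutathione synthesis, stood at 13.0, 14.9, and 14.8 CPM without ATRA and at 131, 143, and 134 CPM with it. GCLM, the modifier subunit of the same enzyme, overlapped between the groups, at 52.7, 63.3, and 60.9 CPM and 60.6, 71.6, and 57.4 CPM.

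The peroxidase gene GPX4, which uses glutathione to remove lipid peroxides, was lower with ATRA, at 306, 305, and 271 CPM without it and 130, 106, and 124 CPM with it. ACSL4 and LPCAT3, whose enzymes place polyunsaturated fatty acids in membrane lipids, were lower as well. Of the other ACSL genes tested in this annotation, ACSL3 and ACSL5 were lower (log2FC -1.195 and -3.088) and ACSL1 was higher (log2FC 0.526). ACSL4 stood at 119, 126, and 130 CPM in the control libraries and at 63.2, 73.3, and 63.0 CPM with ATRA, and LPCAT3 at 56.7, 47.3, and 54.7 CPM and 7.70, 8.46, and 7.71 CPM. SAT1, a polyamine-catabolizing enzyme gene in the same annotation, went from 102, 117, and 99.2 CPM to 1148, 1099, and 1143 CPM. The counts carry no measure of lipid peroxides, glutathione, or cellular iron.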
